A study of Mus musculus with 4 samples.

Results

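The genes described here are 10 regulators and lipid carriers of the adipogenic programme, Pparg, Cebpa, Cebpb, Cebpd, Fabp4, Fabp5, Cd36, Lpl, Plin2 and Adipoq, in immortalised mouse mammary epithelial cells. They were chosen by gene symbol, with earlier results of the same arrays already known, and which measured values weighed in that choice is not recorded. The levels on the 4 arrays and the differences between the clones are therefore given as a description, with no test. All probe sets that carried 1 of these symbols alone were taken, 19 of the 45037 tested, and the one with the highest mean over the arrays led for its gene. The 10 genes are set beside the 18193 genes that had such a leading probe set.

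Cells of a Deaf-1-null mouse had been immortalised with a retrovirus for the papilloma virus E6/E7 proteins, and 2 clones, C1 and E1, were picked. Each clone received either a retrovirus encoding the transcription factor Deaf-1 or the empty retrovirus, and was selected in puromycin. All 4 arrays thus hold RNA of Deaf-1-null, E6/E7-expressing cells, namely Deaf-1-transduced E1, control E1, Deaf-1-transduced C1 and control C1, with 1 array each. The study treated the clones as biological replicates, and each is a single clone from the same source, so any p-value measures only the spread between these arrays. Levels are RMA values on a log2 scale, a scale on which a step of 1 is a 2-fold difference. They do not allow levels of different probe sets to be compared.

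A background level was taken for each array from 44 probe sets of olfactory receptors, genes that are not expected in such cells. It lay between 3.59 and 4.06, and between 46.4% and 53.2% of the probe sets of an array were above it. Arrays of the same clone correlated at 0.994 (C1) and 0.992 (E1) across probe sets, arrays of different clones at 0.976 to 0.983. Deaf1 itself read 6.25 in Deaf-1-transduced E1 against 4.91 in control E1, and 6.73 in Deaf-1-transduced C1 against 5.01 in control C1. It was thus above background in the control cells too, although they came from a Deaf-1-null mouse. The reason was not tested. Levels of about 5 or less that are called above background carry this limit. The epithelial label was borne out by few defining markers. Of 10 epithelial markers, 3 were above background on all 4 arrays, against 10875 of all 18193 genes. Those were Epcam (5.81 to 6.33), Krt5 (4.45 to 4.74) and Krt19 (4.37 to 4.62), with Krt5 and Krt19 close to background. Cdh1, Krt18 and Cldn4 were above background on none. Of 7 fibroblast markers, 6 were above background on all 4 arrays, among them Col1a1 (12.8, 12.8, 12.6 and 12.5, in the order of arrays given above). The cells are called by their clone names here.

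In adipocyte differentiation, C/EBPβ and C/EBPδ act early and lead to expression of PPARγ and C/EBPα, which maintain each other and switch on the genes of the fat cell. Those genes include the fatty acid binding protein Fabp4, the uptake receptor Cd36, the lipase Lpl and the hormone gene Adipoq. Several are not restricted to fat, since Fabp4 and Cd36 are also made by endothelial cells and macrophages, and Plin2 coats lipid droplets in many cell types, including the secretory cells of the lactating gland. In bulk RNA, fewer cells with a transcript and less transcript per cell cannot be told apart.

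The clones differed in part of the programme. Fabp4, Pparg, Fabp5 and Cebpa were higher in E1, Cebpd was lower in E1, and the other members differed by less than 1 on the log2 scale or were below background in both clones. A gene was called apart when both arrays of one clone lay above both of the other and the means differed by at least 1. By this rule 4 of the 10 members were higher in E1 and 1 was lower, against 1.70% (309 genes) and 1.70% (310 genes) of all 18193 genes. The median difference, E1 minus C1, was 0.37 over the members and 0.016 over all genes. The members had been listed with earlier results known, so their number is not evidence of its own. The closest on either side of the limit were Cebpa at 1.21 and Plin2 at 0.77.

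**Figure D1:**
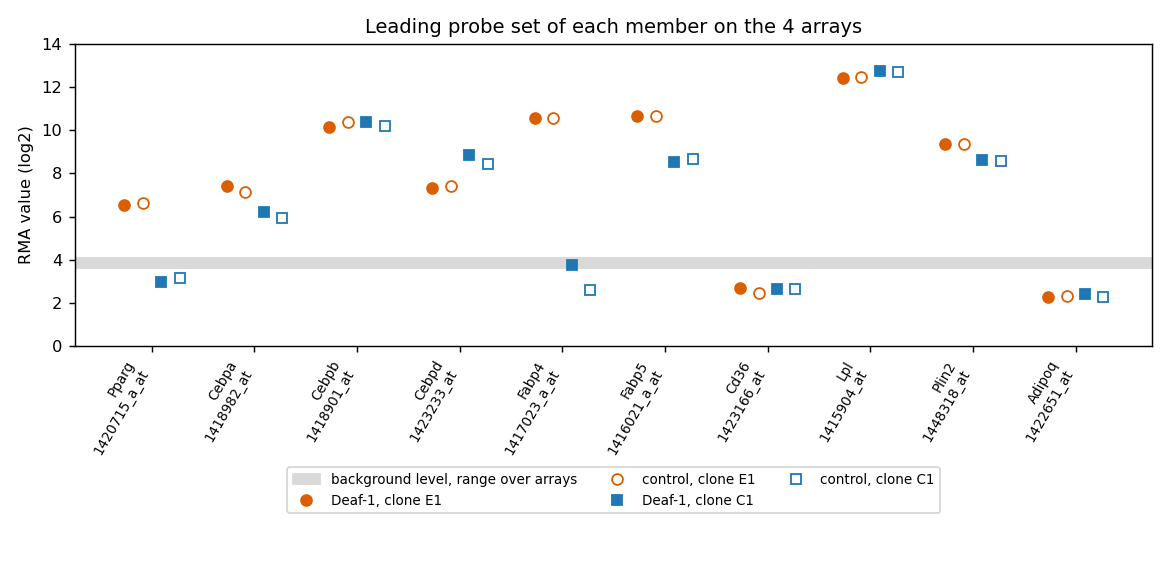
RMA value (log2, vertical axis) of the leading probe set of each of the 10 genes on each array, with E1 as circles and C1 as squares, Deaf-1-transduced cells filled and control cells open. The grey band is the background level, 3.59 to 4.06. Fabp4 and Pparg lie far above the band in E1 and at or below it in C1, whereas Cd36 and Adipoq lie below it on all 4 arrays.

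Pparg encodes the nuclear receptor that is the main regulator of adipogenesis. Its only probe set, 1420715_a_at, read 6.53 in Deaf-1-transduced E1, 6.62 in control E1, 2.95 in Deaf-1-transduced C1 and 3.16 in control C1. Both E1 arrays were above background and both C1 arrays were not, so only a bound can be given. Pparg was at least 6.42-fold higher in E1, with the C1 arrays set to their background levels. The measured means were 6.58 ± 0.062 in E1 and 3.05 ± 0.15 in C1 (SD, n = 2 arrays each), a measured difference of 3.53 against a C1 level that only has an upper limit.

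Cebpa encodes C/EBPα, the partner that maintains Pparg expression in fat cells. At 1418982_at it read 7.43 (Deaf-1) and 7.15 (control) in E1, and 6.21 (Deaf-1) and 5.95 (control) in C1. All 4 values were above background, and the E1 values lay above both C1 values. The means were 7.29 ± 0.20 in E1 and 6.08 ± 0.18 in C1 (SD, n = 2 each), a 2.32-fold difference, about the same with either retrovirus.

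Promoter sequences of both genes are shown because they were higher in the same clone and their products act on each other's genes. The windows run from 250 bases before to 50 after a RefSeq start in GRCm38.p6, and 6 of the 10 genes had at least 1. Fabp4, Fabp5, Cebpd and Lpl had none and were not searched. The windows were searched on both strands for TTGCNNAA, letters of a C/EBP type site, and for TTCG, the core that Deaf-1 is known to bind. No window of the 6 genes held both, and those of Cebpb, Cd36, Plin2 and Adipoq held neither. Of all 32851 windows, 10.8% held TTGCNNAA and 44.7% held TTCG. Pparg has 3 starts, and only the one farthest downstream, at chr6:115421816-115422115 on the plus strand, held TTGCNNAA. It had 2 matches, beginning 215 and 16 bases before the start (capitals).
Pparg, start 3 of 3: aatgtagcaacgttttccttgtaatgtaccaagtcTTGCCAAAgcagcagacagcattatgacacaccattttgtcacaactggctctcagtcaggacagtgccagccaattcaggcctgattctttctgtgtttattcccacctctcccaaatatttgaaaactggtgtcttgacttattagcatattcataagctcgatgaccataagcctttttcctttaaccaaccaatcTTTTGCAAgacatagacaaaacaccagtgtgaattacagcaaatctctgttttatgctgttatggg
None of the 3 Pparg windows held TTCG. The Cebpa window, at chr7:35119043-35119342 on the plus strand, held TTCG at 4 places (capitals) and no TTGCNNAA.
Cebpa: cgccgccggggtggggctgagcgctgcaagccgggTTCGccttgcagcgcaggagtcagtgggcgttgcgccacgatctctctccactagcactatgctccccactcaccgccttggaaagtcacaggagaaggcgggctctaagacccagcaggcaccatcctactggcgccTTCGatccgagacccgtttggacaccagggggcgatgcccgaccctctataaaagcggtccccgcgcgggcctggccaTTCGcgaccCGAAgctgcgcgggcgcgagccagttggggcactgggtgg
A match describes letters in a window and is not evidence of binding, and the array values do not show which start was used.

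The other C/EBP genes did not follow. Cebpb, which encodes the early factor C/EBPβ, read 10.1 (Deaf-1) and 10.4 (control) in E1, and 10.4 (Deaf-1) and 10.2 (control) in C1 at 1418901_at. The clones overlapped, with means of 10.3 ± 0.17 in E1 and 10.3 ± 0.12 in C1 (SD, n = 2 each). A second probe set, 1427844_a_at, read 9.59, 9.71, 9.50 and 9.58 in the same order, a difference of 0.11.

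Cebpd, the other early factor gene, was lower in E1. At 1423233_at it read 7.34 (Deaf-1) and 7.40 (control) in E1, and 8.84 (Deaf-1) and 8.42 (control) in C1. The E1 mean of 7.37 ± 0.044 was 2.40-fold lower than the C1 mean of 8.63 ± 0.30 (SD, n = 2 each), a log2 difference of -1.26. The other probe set, 1456605_at, gave -0.64, with values of 3.50, 3.85, 4.33 and 4.29 that lay close to background. Averaged over both probe sets the difference was -0.95 and did not reach the limit of 1.

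Fabp4, which encodes the fatty acid binding protein of adipocytes, had the largest measured difference of all 18193 genes in the direction of E1. At 1417023_a_at it read 10.6 (Deaf-1) and 10.6 (control) in E1, and 3.77 (Deaf-1) and 2.57 (control) in C1. The E1 mean of 10.57 ± 0.019 was 7.40 above the C1 mean of 3.17 ± 0.85 (SD, n = 2 each). In C1 only 1 of 2 arrays, the Deaf-1 array, was above its background level, by a small margin (3.77 against 3.73). With the control C1 array set to its background, Fabp4 was at least 101-fold higher in E1. The second bright probe set, 1451263_a_at, read 9.38 and 9.48 in E1 and 2.42 and 2.46 in C1, at least 46.4-fold higher in E1.

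The remaining Fabp4 probe sets read much lower in E1. Probe set 1425809_at read 4.07 (Deaf-1) and 3.79 (control) in E1, and 3.10 (Deaf-1) and 3.26 (control) in C1. Probe set 1424155_at read 4.23 (Deaf-1) and 3.38 (control) in E1, and 2.78 (Deaf-1) and 2.60 (control) in C1. Their differences of 0.75 and 1.11 had the same sign as those of the bright probe sets but were measured near background. Averaged over the 4 probe sets, the Fabp4 difference was 4.06.

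Fabp5, which encodes the epidermal member of the same family, was high in both clones and higher in E1. At 1416021_a_at it read 10.7 (Deaf-1) and 10.6 (control) in E1, and 8.53 (Deaf-1) and 8.68 (control) in C1. The means of 10.65 ± 0.021 in E1 and 8.61 ± 0.11 in C1 (SD, n = 2 each) differed 4.13-fold. The second probe set, 1416022_at, gave a 4.76-fold difference, with 9.75 and 9.74 in E1 and 7.54 and 7.44 in C1. Fabp5 was thus well above background in C1, where both bright Fabp4 probe sets were near or below it.

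Fabp5 and Fabp4 lie close together on mouse chromosome 3, and most of their neighbours gave no measurable level. These neighbours were named for their place and not by their values. Pmp2 and Fabp9, the 2 protein-coding genes between them, are family members, and so is Fabp12 on the far side of Fabp4. None of these 3 genes was above background on any array, so no difference is given for them. Impa1, a gene for inositol monophosphatase that follows Fabp12, read 7.92 (Deaf-1) and 8.24 (control) in E1, and 8.52 (Deaf-1) and 8.60 (control) in C1.

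**Figure D2:**
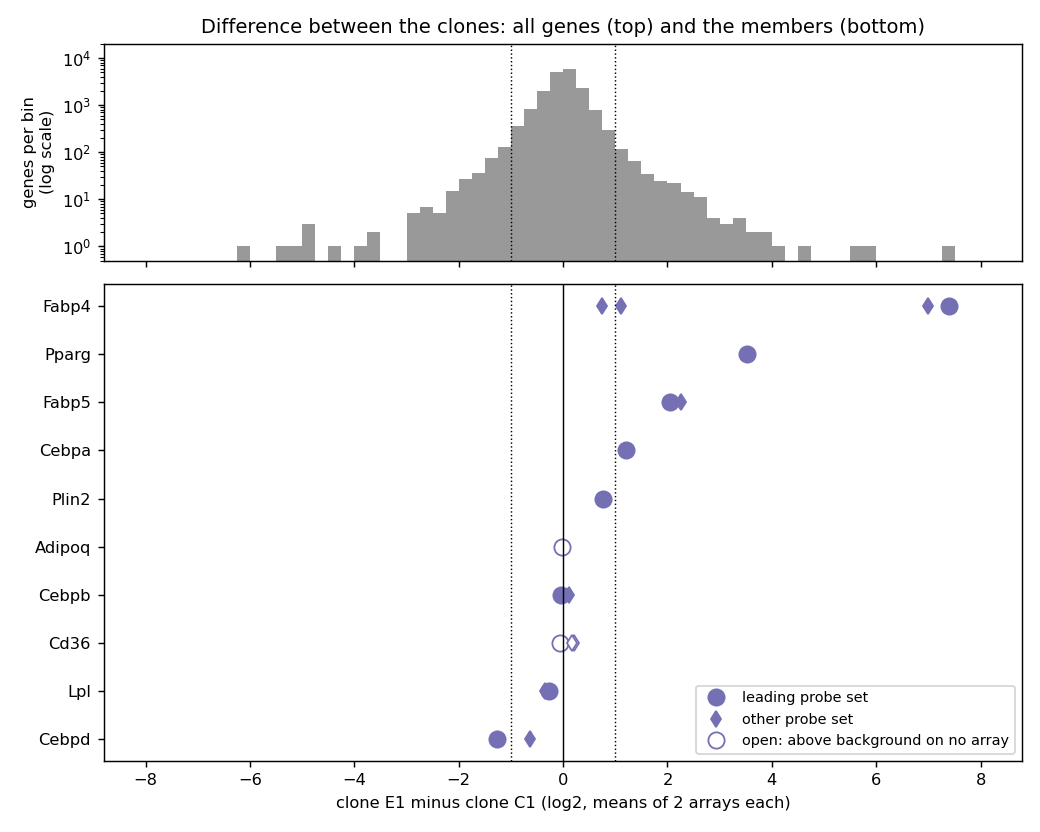
Difference between the clones (E1 minus C1, log2, horizontal axis) for all 18193 genes as a histogram with a logarithmic count axis (top) and for every probe set of the 10 genes (bottom), large circles for leading and diamonds for other probe sets, open where no array was above background. Dotted lines mark a difference of 1 in either direction. Fabp4 lies at 7.40 at its leading probe set, Pparg at 3.53, Fabp5 at 2.05 and Cebpd at -1.26.

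Lpl encodes lipoprotein lipase, which frees fatty acids from circulating triglycerides and is made by many mesenchymal cells besides adipocytes. At 1415904_at it read 12.4 (Deaf-1) and 12.5 (control) in E1, and 12.7 (Deaf-1) and 12.7 (control) in C1. The clones did not overlap but the difference was small, -0.27, or -0.35 at 1431056_a_at.

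Plin2, which encodes a coat protein of lipid droplets, was 1.71-fold higher in E1. At 1448318_at it read 9.38 in both E1 arrays, and 8.64 (Deaf-1) and 8.58 (control) in C1. Both E1 values lay above both C1 values, and the means were 9.38 ± 0.00026 in E1 and 8.61 ± 0.041 in C1 (SD, n = 2 each). The difference was 0.77, with a range of 0.74 to 0.80 when 1 array was left out. The SD covers arrays of 1 clone and not the variation between clones.

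Cd36, which encodes a fatty acid receptor, was not above background at any of its 3 probe sets. The leading one, 1423166_at, read 2.71 (Deaf-1) and 2.43 (control) in E1, and 2.62 in both C1 arrays. Adipoq, which encodes adiponectin, a hormone of mature fat cells, read 2.29 (Deaf-1) and 2.32 (control) in E1, and 2.40 (Deaf-1) and 2.25 (control) in C1 at 1422651_at, again below background. No fold is given for these 2 genes, since neither clone gave a measurable level.

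Among markers of adipocytes, endothelial cells and macrophages, no gene was apart between the clones. Of 6 adipocyte markers listed, 4 were measured. Lep and Cidec were above background on no array, Slc2a4 read 4.23, 4.07, 4.12 and 4.01, and Retn read 4.71, 4.48, 4.22 and 4.61 (Deaf-1 E1, control E1, Deaf-1 C1, control C1). The mean log2 value of these 4 markers was 3.71 and 3.52 in E1 and 3.45 and 3.59 in C1 (Deaf-1, control). For 6 endothelial markers it was 3.97 and 3.82 in E1 and 3.78 and 3.83 in C1, and Pecam1, Cdh5, Tie1 and Emcn were above background on no array. The other endothelial markers were above it on all 4, Kdr at 4.20 to 4.24 and Tek, an angiopoietin receptor, at 7.28 and 7.29 in E1 and 6.93 and 6.38 in C1, a difference of 0.63 without overlap. For 6 macrophage and leukocyte markers it was 3.58 and 3.29 in E1 and 3.44 and 3.44 in C1, with Ptprc, Adgre1, Itgam and Lyz2 above background on none and Cd68 on 1 array. Csf1r, the receptor of a macrophage growth factor, was above it on all 4, at 6.30 and 5.94 in E1 and 5.81 and 6.28 in C1. For 10 epithelial markers it was 4.04 and 3.81 in E1 and 3.64 and 3.70 in C1, where Krt7, a keratin, read 4.41 and 4.10 in E1 and 2.92 and 2.86, below background, in C1. For 7 fibroblast markers it was 10.8 and 10.9 in E1 and 11.3 and 11.2 in C1, and Lum, which encodes lumican, read 3.57 and 4.26 in E1 and 6.94 and 6.52 in C1. The other fibroblast markers differed by little and in both directions, with Col1a1 (0.27), Col1a2 (0.16) and Col3a1 (0.19) higher in E1 and Dcn (-0.23) and Thy1 (-0.26) lower, without overlap, and Pdgfra (-0.16) overlapping. The part of these marker levels in the results above was not tested.

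Among 98 measured genes of 8 further lists of the adipogenic pathway, 3 were higher in E1 by the same rule and 6 were lower. Of all genes, 1.70% were apart in each direction. The median difference of the 98 genes was 0.079. The lists were chosen with earlier results known, so their counts are not evidence of their own. The storage list, with 14 enzymes and droplet proteins, held no gene apart, and its largest differences in size were those of Lpin1 (0.85), a phosphatidate phosphatase, and Agpat2 (0.71), an acyltransferase. At the other end was Gpam (-0.54), a mitochondrial acyltransferase, named after its value was seen. Neither was any of 9 genes of lipolysis apart, where Mgll, the monoacylglycerol lipase, had 0.84 and Lmf1, a maturation factor for lipases, -0.35. The other Mgll probe sets above background gave 1.03 and 1.18.

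Of 10 fatty acid synthesis genes, 1 was apart. Acly, the ATP citrate lyase that supplies acetyl-CoA, read 8.81 (Deaf-1) and 8.68 (control) in E1, and 10.1 (Deaf-1) and 10.3 (control) in C1, 2.73-fold lower in E1. Scd1, a fatty acid desaturase, was just inside the limit at 0.99, or 1.46 at its second probe set. Of 16 uptake and carrier genes, Crabp1, a retinoic acid binding protein, was 2.09-fold higher in E1, and Cav1, the caveolar coat protein, was 2.07-fold lower in E1.

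Of 15 inhibitors of adipogenesis, 3 were apart and all were lower in E1, against 1.70% of all genes lower by the same rule. Dlk1, also known as Pref-1, a surface protein of preadipocytes, read 7.02 (Deaf-1) and 7.28 (control) in E1, and 9.63 (Deaf-1) and 9.59 (control) in C1. It was 5.48-fold lower in E1, with all 4 values above background, while a second probe set was above background on no array. Sirt1, a deacetylase that represses PPARγ, read 5.11 and 5.85 in E1 and 6.93 and 6.80 in C1, and Klf2, a repressor of the Pparg promoter, 8.21 and 8.16 in E1 and 9.66 and 9.39 in C1 (Deaf-1, control). Klf2 was named after its values were seen. The list's median difference was 0.074, and some inhibitors were higher in E1 without reaching the limit, among them Foxo1 (0.98), also named after its value was seen.

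Of 18 activators, 1 was apart. Prdm16, a factor of brown fat, read 5.21 and 4.88 in E1 and 3.35 and 4.39 in C1, where the Deaf-1 array was not above background. With that array set to its background the difference was 0.99, under the limit of 1. Stat5a, a transcription factor of cytokine signalling, had -0.88. Of 7 adipokine and marker genes, Nnat, which encodes neuronatin, read 6.01 and 6.53 in E1 and 4.49 and 3.70 in C1. The control C1 array was not above background, and with it set to its background the difference was 2.00. Rarres2, which encodes the adipokine chemerin, was 2.38-fold lower in E1. No gene was apart among 10 PPAR family members and cofactors, where Ncoa2 (0.84) and Crebbp (-0.60), both coactivators, differed most.

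**Figure D3:**
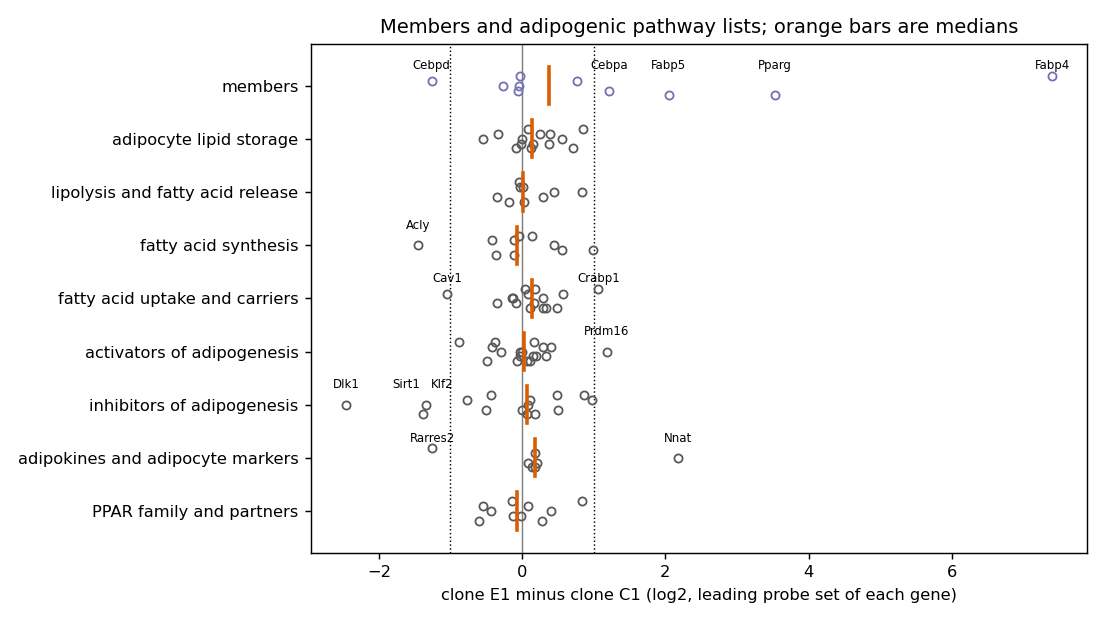
Difference between the clones (E1 minus C1, log2, horizontal axis) of the leading probe set of each member (top row) and of each measured gene of the 8 pathway lists, with an orange bar at the median of each row and dotted lines at a difference of 1 in either direction. List medians lie close to 0, and Dlk1 at -2.45 and Nnat at 2.18 lie farthest out among the listed genes. Nnat was below background in control C1.

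The genes whose profile over the 4 arrays lay closest to that of Fabp4 came from other families. Distance was that between values centred on their own mean, over all gene probe sets above background in at least 1 clone. The nearest 5 were Casp1 (distance 1.71), Rpl39l (1.92), Mageh1 (2.88), Popdc3 (3.51) and Hoxa11 (3.64). Casp1, which encodes an inflammatory caspase, read 9.09 (Deaf-1) and 9.20 (control) in E1, and 3.22 (Deaf-1) and 3.23 (control) in C1. With 4 arrays of 2 clones, such likeness is mostly a high level in E1 and a low one in C1.

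Deaf-1 was then compared with the empty retrovirus, the comparison for which the arrays were made. None of the 10 genes had an adjusted p under 0.05 from limma (two-sided, Benjamini-Hochberg adjustment), and adjusted p was 1 for all 19 probe sets. Of all probe sets 0% passed this threshold. Deaf1 itself, the gene carried by the retrovirus, did not pass it either (limma unadjusted p 0.0012). The fit could thus not call even the introduced gene, and the members' result does not show that they are unchanged by Deaf-1. None of the members reached an unadjusted p under 0.01, the study's own limit, against 0.0111% (5 probe sets) of all. The study printed a smaller p for Deaf1 than this fit gave, so the same limit is stricter here. None of the members reached a limma unadjusted p under 0.05 either, with or without clone as a block. Of all 45037 probe sets, only 195 did so without the block and 394 with it. So low a share makes the absence of members among them not particular to these genes. Unadjusted p ranged between 0.366 and 0.982. The median log2 fold change was 0.046 over the members and -0.0068 over all genes.

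Cebpa was higher and Pparg lower with Deaf-1 in both clones, by small amounts. For Cebpa the change was 0.28 in E1 and 0.26 in C1, with a log2 fold change of 0.27 (standard error 0.59, 95% confidence interval -1.28 to 1.82). That interval counts the difference between the clones as spread. With clone as a block the standard error was 0.14 and the limma unadjusted p 0.13. For Pparg it was -0.087 in E1 and -0.21 in C1, where C1 was below background. Plin2 changed by 0.00036 in E1 and 0.059 in C1. The changes of Cebpb, Cebpd, Fabp4, Fabp5, Lpl and Adipoq had opposite signs in the clones, and that of Cd36 was exactly 0 in C1. Opposite signs were no more frequent among the members (6 of 10) than among all genes (11069 of 18193).

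The change of Fabp4 at its leading probe set was -0.027 in E1 and 1.20 in C1, where its level was near background. The bright second probe set gave -0.11 in E1 and -0.046 in C1. The log2 fold change of Fabp4 was 0.59 with a standard error of 3.48, since the difference between the clones enters the spread in this fit. The high level of Fabp4 in E1 was thus present with either retrovirus, at 10.56 with Deaf-1 and 10.59 in control cells.

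**Figure D4:**
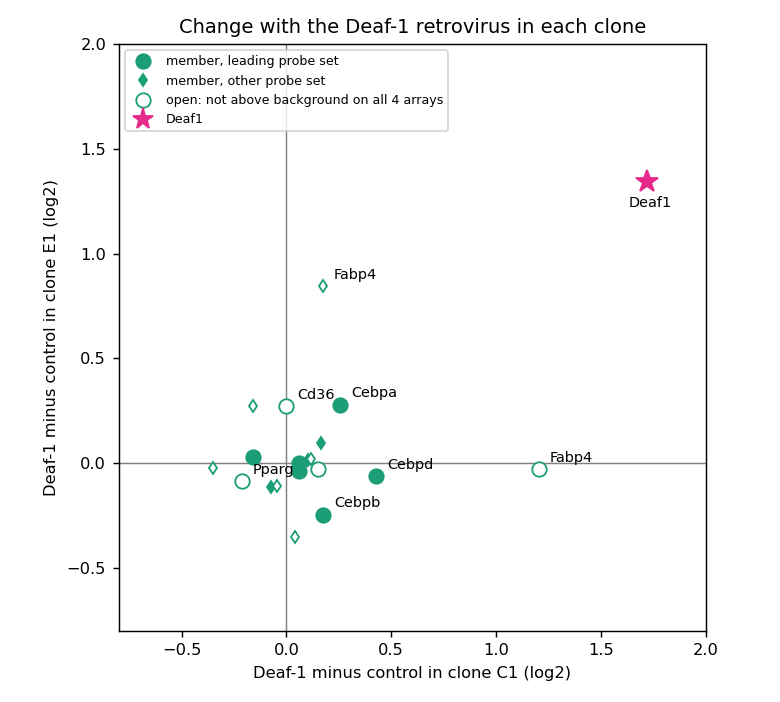
Change on the log2 scale between Deaf-1 and control cells, in clone E1 (vertical axis) and in clone C1 (horizontal axis), for all 19 probe sets of the 10 genes and for Deaf1 (star), open where not all 4 arrays were above background. Deaf1 lies at 1.34 in E1 and 1.72 in C1, Fabp4 at -0.027 in E1 and 1.20 in C1 at its leading probe set, and Cebpa at 0.28 in E1 and 0.26 in C1.

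Among the 98 genes of the pathway lists, none had an adjusted p under 0.05 from limma. None reached a limma unadjusted p under 0.05 with or without the block. Of all 18193 genes, only 74 did so without the block and 145 with it, so the absence is not particular to the lists. Of the 98 genes, 17 were higher and 20 lower with Deaf-1 in both clones and 61 had opposite signs, with a median log2 fold change of -0.0055. Of all 18193 genes, 3205 were higher and 3675 lower in both clones and 11069 had opposite signs, a similar split. The log2 fold changes of the 98 genes lay between -0.36 (Prdm16) and 0.53 (Fabp3). Fabp3, the heart-type fatty acid binding protein, had 1.06 in E1 and 0.0086 in C1. Fabp3 was named after its values were seen.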

How the data were processed

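RNA of the 4 cell preparations was hybridized to Affymetrix mouse expression arrays. The authors deposited log2 values computed with RMA, which corrects background, quantile-normalizes the arrays and summarizes each probe set. RMA and limma are named in the submitters' processing notes, with versions not given in the sources used here. Values ran between 1.75 and 13.6, and array medians between 3.77 and 3.87. Nothing was normalized again for the values reported. The number of arrays limits the precision.

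Of 45101 probe sets, 64 control probe sets were left out. The array's annotation gave 1 symbol to 34945, several to 932 and none to 9160. Symbols of 34741 probe sets were matched to RefSeq gene identifiers, and 0 changed. Background was the 95th percentile of olfactory receptor probe sets on each array.

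Deaf-1 and control were compared by moderated linear models (limma 3.58.1, R 4.3.3) fitted to all 45037 probe sets. The clones were replicates as in the study (2 residual and 2.56 prior degrees of freedom), but the study's p-values were not reproduced. Clone as a block was an alternative. Both retroviruses were used in the same clones, and deviations from the group means correlated at 0.54 within a clone. The difference between the clones was described without a test. Members and lists were chosen with earlier results of these data known. Named were all members, listed genes past a threshold for Deaf-1 (there were none), up to 2 genes per pathway list with the largest difference between the clones among those above background, the 5 nearest profiles to the member of widest range, marker genes and Deaf1. Scripts were tested on simulated data. The alternatives tried were clone as a block, leaving out single arrays, 3 further normalizations, a filter at background, a trend or robust prior, means over probe sets and other limits of difference. Genes of the lists with no probe set under their symbol alone were not analysed here.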

Additional observations from a re-analysis of the deposited data

Results flagged for a closer look

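For 6 of the 10 genes the change with Deaf-1 had opposite signs in the clones at the leading probe set, and this difference was not tested, since each clone has 1 pair of arrays. Opposite signs were also found for 11069 of all 18193 genes, so their number among the members is not particular to them. The change in E1 minus that in C1 was -1.23 for Fabp4, with C1 near background. It was -0.49 for Cebpd (-0.062 in E1 and 0.43 in C1) and -0.42 for Cebpb (-0.25 in E1 and 0.18 in C1). It was 0.19 for Fabp5, -0.098 for Lpl and -0.18 for Adipoq, the last below background.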

How the results depend on the processing

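No alternative gave any of the 10 genes an adjusted p under 0.05 from limma or an unadjusted p under 0.01. The 5 probe sets of the whole array with unadjusted p under 0.01 became 11 with clone as a replicate block, 2 with only means above background, 25 with an intensity trend in the prior, and 2 to 47 with 1 array left out (15 without Deaf-1 E1, 2 without control E1, 47 without Deaf-1 C1 and 3 without control C1). The block changed no call of a member. The small log2 fold change of Cebpb turned to 0.017 after a further quantile normalization and to 0.0023 after cyclic loess, and that of Lpl to -0.0090 after median centring. With 1 array left out the groups hold unequal mixes of the clones, so the values below carry the difference between the clones. They ran over -3.42 to 4.60 for Fabp4, -1.94 to 1.64 for Pparg, -1.13 to 1.01 for Fabp5, -0.34 to 0.88 for Cebpa, -0.57 to 0.94 for Cebpd, -0.37 to 0.43 for Plin2, -0.15 to 0.17 for Lpl and -0.16 to 0.089 for Cebpb. The number of members apart between the clones, 5, was 3 at a limit of 2 on the log2 scale and 6 at a limit of 0.5. It was 4 with means over all probe sets of a gene, where Cebpd (-0.95) did not reach the limit of 1. With 1 array left out the difference between the clones stayed at 6.80 or more for Fabp4 and ran over 3.42 to 3.63 for Pparg, 1.97 to 2.13 for Fabp5, 1.07 to 1.35 for Cebpa and -1.48 to -1.05 for Cebpd. Levels near background limit what can be said of Pparg and Fabp4 in C1 and of Cd36 and Adipoq in both clones.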
